A study of Mus musculus with 8 samples.

Results

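The nuclear genes of oxidative phosphorylation (OXPHOS) were described across the immune cells of the mouse posterior eye. The members were all genes whose symbol begins with Nduf, Uqcr, Cox4, Cox5, Cox6, Cox7, Cox8 or Atp5, together with Sdha, Sdhb, Sdhc and Sdhd. The rule listed 94 of the 32285 genes measured, and the 91 with at least 20 unique molecular identifiers (UMIs) in kept cells were described. Cox7b2 and Cox8c had 1 UMI each and Ndufa4l2 had 6 UMIs, and these 3 were only counted. The members held 1016516 of the 78007906 RNA UMIs of kept cells.

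Live CD45+ cells were sorted from retina, retinal pigment epithelium, choroid and sclera of female mice aged 10 to 12 weeks. They were profiled as single cells for RNA and for antibody-derived tags (ADT), which count surface proteins. The 4 groups were Nr4a1-/- laser, WT laser, Nr4a1-/- control and WT control, and each was 1 RNA library of pooled eyes. Laser eyes came from 11 to 12 mice per genotype and were taken on day 3 after 8 focal burns per eye, and control eyes came from 22 mice per genotype without laser. Nr4a1-/- mice lack the orphan nuclear receptor Nr4a1 in every cell of the body, and non-classical monocytes need this receptor. All labels give C57BL/6J as the strain, whereas the study's methods list the Nr4a1-/- line on a mixed B6;129S2 background, so strain and genotype cannot be told apart. Since each group was 1 library, laser and genotype were compared as ratios with intervals for counting error only, and no p-value was computed for them.

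After the filter of 200 to 5000 genes and at most 15% mitochondrial UMIs, 1649 Nr4a1-/- laser, 3791 WT laser, 2020 Nr4a1-/- control and 3763 WT control cells were kept, with medians of 3676, 7618, 5478 and 5202 UMIs. A cell was put in a lineage from 8 fixed RNA markers per lineage, none of them a member, and 67% to 84.3% of the kept cells of a library were gated. Of the 96 markers, 89 were highest in their own lineage, with the fewest in cDC2 (5 of 8) and classical monocytes (6 of 8). The same markers set the lineages, so this count is no independent check of them. The median Ly-6G tag count was 7 to 36 in neutrophils and at most 2 in every other lineage, and that of CX3CR1 was 5 to 10.5 in microglia and at most 3 elsewhere. Nr4a1 was lower in Nr4a1-/- cells in 19 of 19 lineage pairs, with ratios of 0.0975 to 0.679. At most 7 cell barcodes were shared between any 2 libraries. Only 1 and 2 cells of the Nr4a1-/- libraries gated as non-classical monocytes, so this lineage was described in WT alone, and Spp1 Gpnmb macrophages were described in the laser libraries alone because the controls held 5 and 4 of them.

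OXPHOS is carried out in the inner mitochondrial membrane. Complex I (NADH dehydrogenase, Nduf genes) and complex II (succinate dehydrogenase, Sdh genes) pass electrons to complex III (Uqcr genes) and on to complex IV (cytochrome c oxidase, Cox genes), and complex V (ATP synthase, Atp5 genes) uses the resulting proton gradient to make ATP. A small set of core subunits of complexes I, III, IV and V is encoded by the mitochondrial genome, and the nuclear members make the rest. Genes called Ndufaf encode factors that help build complex I and are not part of the finished enzyme. In macrophages the balance between OXPHOS and glycolysis is known to shift with activation, and mature neutrophils are known for few mitochondria and a reliance on glycolysis.

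Of the 91 described members, 38 were complex I subunits, 8 complex I assembly factors, 4 complex II, 8 complex III, 16 complex IV and 17 complex V. Complexes I, V and IV held 31.0%, 30.01% and 26.6% of the member UMIs, complex III held 9.45%, complex II 1.82% and the assembly factors 1.105%. The 2 members with the highest mean level per group were Ndufa4 and Ndufa13 in complex I, Ndufaf8 and Ndufaf2 among the assembly factors, Sdhb and Sdha in complex II, Uqcrh and Uqcrq in complex III, Cox8a and Cox4i1 in complex IV, and Atp5e and Atp5l in complex V. Mean levels over the lineages were 609 CPM for Cox8a and 598 CPM for Cox4i1, both structural subunits of complex IV, 475 CPM for Atp5e, the epsilon subunit of the rotor stalk, 447 CPM for Atp5l, and 402 CPM for Uqcrh, the hinge protein of complex III. CPM is the usual depth-scaled count, a gene's UMIs relative to all RNA UMIs of a lineage in a library. The kit reads the 3′ end of a transcript, so a level is not divided by gene length.

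Promoter sequence is shown for 4 members on which the comparisons below turn: Atp5g1 and Ndufs5, which rose in Spp1 Gpnmb macrophages, and Atp5k and Ndufa3, which were lower in Nr4a1-/- cells. Each run is the 150 bases before the RefSeq start on GRCm38.p6, printed 5′ to 3′ on the gene's strand, with capitals for the motif of the transcription factor NRF1 (nuclear respiratory factor), which is known to act on many OXPHOS genes. The base after the first A of the motif was left free in the search. The windows are chr11:96075632-96075781 on the minus strand for Atp5g1, chr4:123718187-123718336 on the minus strand for Ndufs5, chr5:108434400-108434549 on the minus strand for Atp5k and chr7:3617223-3617372 on the plus strand for Ndufa3.
Atp5g1: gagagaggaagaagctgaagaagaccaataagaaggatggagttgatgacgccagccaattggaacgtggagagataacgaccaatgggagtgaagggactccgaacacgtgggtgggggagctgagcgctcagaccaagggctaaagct
Ndufs5: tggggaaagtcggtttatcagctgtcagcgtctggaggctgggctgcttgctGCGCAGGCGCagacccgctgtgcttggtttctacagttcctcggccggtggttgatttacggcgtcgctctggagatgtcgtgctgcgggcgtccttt
Atp5k: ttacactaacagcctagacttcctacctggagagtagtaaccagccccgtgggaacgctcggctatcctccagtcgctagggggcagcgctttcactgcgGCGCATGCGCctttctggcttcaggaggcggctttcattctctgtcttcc
Ndufa3: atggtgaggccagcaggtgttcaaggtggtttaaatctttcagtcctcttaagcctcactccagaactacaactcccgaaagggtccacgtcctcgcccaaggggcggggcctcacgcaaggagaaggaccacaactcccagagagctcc
The motif began 98 bases before the start of Ndufs5 and 50 bases before that of Atp5k, and the windows of Atp5g1 and Ndufa3 did not hold its letters. Of the 91 described members, 74 matched a RefSeq promoter entry. The NRF1 motif, on either strand, stood in the 250 bases before the start in 14 of these 74 (18.9%), against 4.23% of 27025 genes. The ETS-factor letters CCGGAAGT stood there in 3 of 74 (4.05%), against 3.23% of all genes. The YY1 letters AAGATGGC stood in the first 50 transcribed bases of 9 of 74 members (12.2%), against 1.35% of all genes, and Ndufa3 was among the 9. In the 250 bases before the start these letters stood in 1 of 74 members (1.35%), against 1.83% of all genes. In the first 50 transcribed bases NRF1 matched 5 of 74 (6.76%, all genes 0.93%) and ETS 2 of 74 (2.70%, all genes 1.08%). These matches are a description of the letters only.

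Spp1 Gpnmb macrophages had the highest summed level of the members and microglia the lowest. The sum was 19503 CPM in Nr4a1-/- laser and 19938 CPM in WT laser Spp1 Gpnmb macrophages, from 64 and 78 cells. Classical monocytes followed with a mean over their libraries of 17725 CPM, then cDC1 with 16402, cDC2 with 16169, NK cells with 15251, non-classical monocytes with 13194, T cells with 12952, B cells with 10884, neutrophils with 10567, resident macrophages with 10132 and microglia with 8013 CPM. The library values of neighbouring lineages overlapped, except that both Spp1 Gpnmb macrophage values were above the highest classical monocyte value of 18615 CPM and the lowest NK cell value of 14093 CPM was above both non-classical monocyte values. The means cover different libraries, with Spp1 Gpnmb macrophages from the laser libraries and non-classical monocytes from WT alone, and the order varied between libraries. In WT laser cDC1 stood above classical monocytes and T cells above non-classical monocytes, and neutrophils were the sixth highest lineage in both laser libraries but eighth in Nr4a1-/- control and ninth in WT control. Part of the spread within a lineage followed laser, as in neutrophils with 13896 and 14636 CPM in Nr4a1-/- and WT laser against 6784 and 6951 CPM in Nr4a1-/- and WT control.

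**Figure D1:**
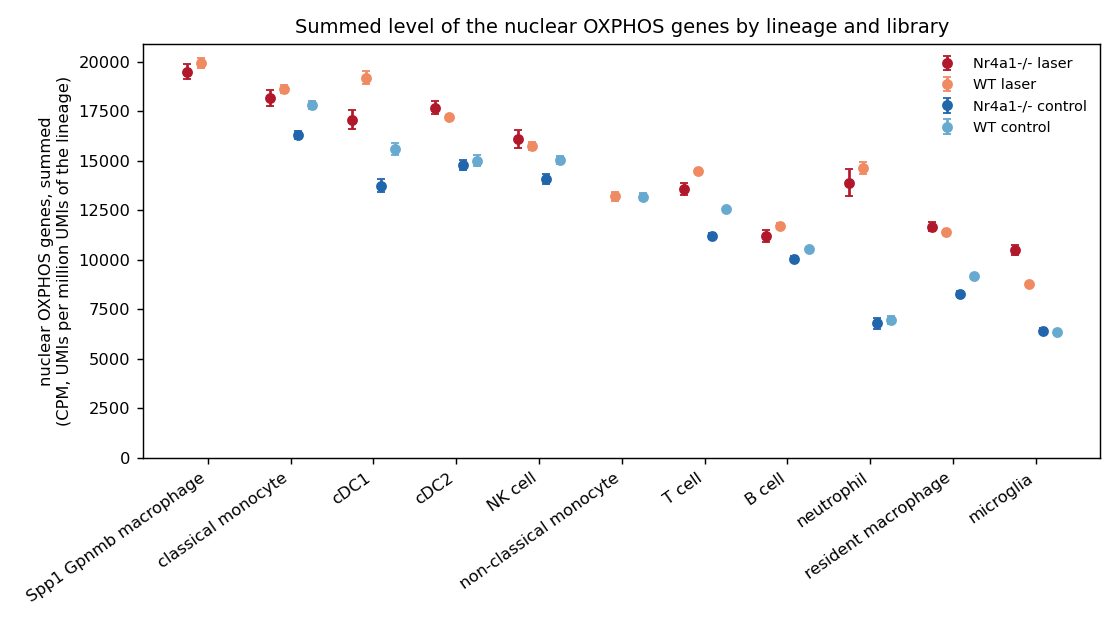
Summed level of the nuclear OXPHOS genes (CPM) for each lineage and library, with exact Poisson 95% intervals for counting error. Spp1 Gpnmb macrophages sit highest at 19503 and 19938 CPM, and the laser points of neutrophils and microglia lie above their control points.

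The order was shared by most members. Of the 91 members, 54 had their highest mean level in Spp1 Gpnmb macrophages and 12 in classical monocytes, and 44 had their lowest in microglia and 35 in neutrophils. Uqcrh was highest in T cells, Cox8a and Ndufa4 in NK cells, and Sdha in B cells. Ndufa4, named as a complex I subunit and later placed with complex IV, ranged 5.07-fold between NK cells (417 CPM) and neutrophils (82.3 CPM). Cox4i1 ranged 2.06-fold, between 853 CPM in Spp1 Gpnmb macrophages and 413 CPM in microglia.

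Lineages were compared within libraries by edgeR's quasi-likelihood test across all 11711 genes, with 89 members tested. Spp1 Gpnmb macrophages against resident macrophages gave the most members that rose: 67 of 89 members rose and 0 fell, where 10.1% of all genes rose and 13.6% fell. The median log2 fold change was 0.84 over the members and -0.09 over all genes. At an unadjusted p under 0.05, 1 member was lower, and DESeq2 called 1 lower. By group, 32 of 38 complex I subunits, 3 of 8 assembly factors, 1 of 4 complex II, 5 of 8 complex III, 10 of 14 complex IV and 16 of 17 complex V members rose.

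Atp5g1 encodes subunit c, the membrane ring that turns in ATP synthase. It was at 459 and 329 CPM in Nr4a1-/- and WT laser Spp1 Gpnmb macrophages, against 119, 124, 130 and 94.7 CPM in resident macrophages of Nr4a1-/- laser, WT laser, Nr4a1-/- control and WT control, and it rose by a log2 fold change of 1.53 ± 0.24 (SE, adjusted p = 1.23e-05). The groups did not overlap. Ndufc1, an accessory subunit of complex I, was at 237 and 240 CPM against 58.1 to 92.6 CPM in resident macrophages (log2 1.41 ± 0.22, adjusted p = 7.12e-06). Ndufs5, an accessory subunit on the intermembrane side, was at 239 and 218 CPM against 54.6 to 97.4 CPM (log2 1.38 ± 0.21, adjusted p = 7.12e-06). Both Spp1 Gpnmb macrophage values of each gene stood above every resident macrophage value. The assembly factor Ndufaf5 had the largest fold change (log2 1.62 ± 0.55, adjusted p = 0.0287) but rested on 4 and 13 UMIs in Spp1 Gpnmb macrophages, and its adjusted p was 0.478 without the WT laser library.

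Other mitochondrial genes did not all move in this way. Of the 13 subunits encoded by the mitochondrial genome, 0 rose and 1 fell, with a median log2 fold change of -0.24. Of the other lists, 4 of 13 genes of the TCA cycle, 9 of 13 of glycolysis and 39 of 77 mitochondrial ribosomal protein genes rose, with medians of 0.45, 1.71 and 0.75, against 5 of 94 cytosolic ribosomal protein genes. Leaving out a laser library left 1 library of Spp1 Gpnmb macrophages. The median log2 fold change of the members was then 0.78 without WT laser and 0.79 without Nr4a1-/- laser.

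Against classical monocytes the members of Spp1 Gpnmb macrophages were split, with 7 of 89 rising and 7 falling where 9.49% of all genes rose and 10.8% fell. The 4 members that rose most were the assembly factors Ndufaf6 (log2 2.05 ± 0.56, adjusted p = 0.00757) and Ndufaf2 (log2 1.01 ± 0.27, adjusted p = 0.00553) and the accessory subunits Ndufa12 (log2 1.00 ± 0.25, adjusted p = 0.00369) and Ndufs5 (log2 0.85 ± 0.22, adjusted p = 0.00383). The 4 that fell most were the assembly factor Ndufaf7 at -1.81, Cox7a2l at -1.03, Ndufa6 at -0.88 and Uqcrfs1, the Rieske iron-sulphur protein of complex III, at -0.78. Cox7a2l is known as a factor that joins complexes III and IV into supercomplexes. It was at 160 and 168 CPM in Nr4a1-/- and WT laser Spp1 Gpnmb macrophages, against 326, 314, 309 and 363 CPM in classical monocytes of Nr4a1-/- laser, WT laser, Nr4a1-/- control and WT control (SE 0.19, adjusted p = 0.000112), and so moved against Ndufs5. In resident macrophages Cox7a2l was at 185 to 285 CPM. The median log2 fold change of the members was 0.10 here, 0.007 without WT laser and 0.03 without Nr4a1-/- laser. Each of the last 2 fits leaves 1 Spp1 Gpnmb library, so whether the calls hold in both libraries cannot be told from them.

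**Figure D2:**
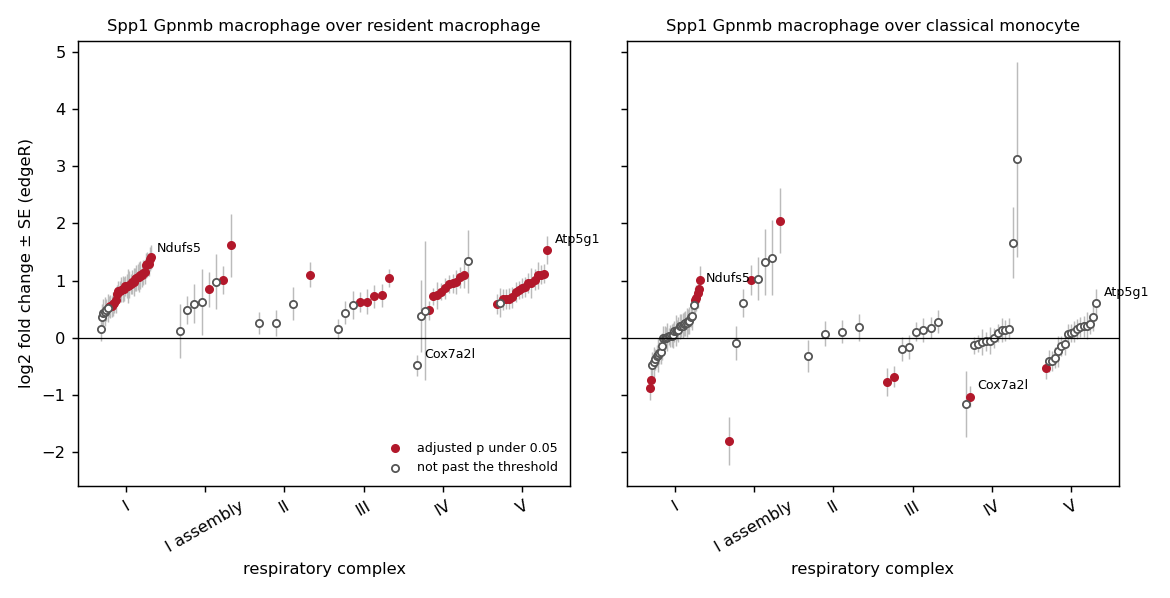
Log2 fold change ± SE (edgeR) of each member in Spp1 Gpnmb macrophages over resident macrophages (left) and over classical monocytes (right), by respiratory complex, with filled points past an adjusted p of 0.05. On the left 67 of 89 members rose and 0 fell, and on the right 7 rose and 7 fell, with Cox7a2l at -1.03.

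Microglia had lower members than resident macrophages: 46 of 89 fell and 1 rose, where 21.0% of all genes fell and 19.2% rose. Uqcrb, a small subunit of complex III, was at 107, 106, 81.5 and 82.6 CPM in microglia of Nr4a1-/- laser, WT laser, Nr4a1-/- control and WT control, against 175, 185, 159 and 162 CPM in resident macrophages in that order (log2 -0.99 ± 0.16, adjusted p = 5.86e-06). The groups did not overlap. Ndufa5 fell by a log2 of -1.03, Atp5k, subunit e of ATP synthase, by -0.97, and Cox5a, a matrix-side subunit of complex IV, by -0.92. The 1 member that rose, Ndufaf7, had a log2 fold change of 0.70 ± 0.28 (adjusted p = 0.0431) and lost the call without the WT laser, the Nr4a1-/- laser or the Nr4a1-/- control library (adjusted p = 0.307, 0.0566 and 0.208).

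Non-classical monocytes of WT had lower members than classical monocytes: 51 of 89 fell and 1 rose, where 10.1% of all genes fell and 8.51% rose. Ndufs8, an iron-sulphur subunit of complex I, was at 46.7 and 56.7 CPM in non-classical monocytes of WT laser and WT control, against 108 and 90.2 CPM in classical monocytes of the same libraries and 136 and 122 CPM in those of Nr4a1-/- laser and Nr4a1-/- control (log2 -1.17 ± 0.30, adjusted p = 0.00551). Atp5g1 fell by a log2 of -1.04, Sdhd, a membrane anchor of succinate dehydrogenase, by -1.03, and Cox6b2 by -1.53. The 1 that rose was Ndufaf6 (log2 1.61 ± 0.55, adjusted p = 0.0349), which had 9 and 14 UMIs in non-classical monocytes. Leaving out WT laser or WT control left 1 library of non-classical monocytes. The median log2 fold change of the members was then -0.41 and -0.75, against -0.60 with all libraries. The Nr4a1-/- libraries hold none of the described non-classical monocytes. Without Nr4a1-/- laser 44 members fell, and without Nr4a1-/- control 29, where 1048 and 961 of all genes fell, against 1177 with all libraries. Without the library block 25 fell and 0 rose.

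Neutrophils had lower members than classical monocytes: 66 of 89 fell and 1 rose, where 22.1% of all genes fell and 18.3% rose. Ndufc2, an accessory subunit of complex I, was at 36.5, 53.0, 13.4 and 19.9 CPM in neutrophils of Nr4a1-/- laser, WT laser, Nr4a1-/- control and WT control, against 136 to 166 CPM in classical monocytes (log2 -2.26 ± 0.20, adjusted p = 2.95e-11). Cox6b2 and Ndufaf4 fell with 1 UMI each in neutrophils, against 52 and 43 UMIs in classical monocytes. Cox7a1 had 0 UMIs in neutrophils and 13 in classical monocytes. The 95% interval of its CPM ratio reached 1.06, and its adjusted p was 0.124 without the WT control library. Other lists were lower as well, with 84 of 94 cytosolic ribosomal protein genes falling (median log2 -1.52) and 12 of 13 mitochondrially encoded subunits (median -1.04), beside a median of -0.93 over the members. The only member that rose was Cox6a2, known as the heart and muscle form of its subunit (log2 4.64 ± 1.41, adjusted p = 0.00843). Of its 19 neutrophil UMIs, 18 came from 1 cell of WT control, and without that library its adjusted p was 0.917.

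Among lymphocytes, NK cells and B cells were each compared with T cells. In NK cells against T cells 8 of 89 members rose and 3 fell, where 10.7% of all genes rose and 13.2% fell. Those that rose most were Cox5b (log2 0.64 ± 0.13), Ndufb7 (0.60 ± 0.14), Cox7a2 (0.52 ± 0.13) and Cox8a (0.51 ± 0.12). Cox8a was at 906, 798, 780 and 807 CPM in NK cells of Nr4a1-/- laser, WT laser, Nr4a1-/- control and WT control, against 594, 608, 463 and 475 CPM in T cells. Cox7a2l moved the other way, at 234, 198, 215 and 216 CPM in NK cells against 416, 330, 435 and 385 CPM in T cells (log2 -0.99 ± 0.14, adjusted p = 1.39e-06). The related Cox7a2 and Cox7a2l thus changed in opposite directions in the same cells. Ndufaf4 and Ndufa10 also fell, by a log2 of -0.61 and -0.52. Without the WT control or the Nr4a1-/- control library 4 members rose and 1 fell.

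In B cells against T cells 25 of 89 members fell and 1 rose, where 18.5% of all genes fell and 16.2% rose. The median log2 fold change was -0.25 over the members and 0.01 over all genes. Ndufv3 fell by a log2 of -0.92, Ndufa8 by -0.73, Ndufa13 by -0.69 and Atp5h, subunit d of the peripheral stalk, by -0.68, and Ndufaf7 rose by 0.75. Leaving out a library gave 11 to 15 members that fell, with 11 without WT control. In cDC1 against cDC2 5 of 89 rose and 3 fell, where 7.76% of all genes rose and 12.6% fell. Atp5md, a small membrane subunit of ATP synthase, was at 253, 375, 188 and 287 CPM in cDC1 of Nr4a1-/- laser, WT laser, Nr4a1-/- control and WT control, against 184, 267, 106 and 163 CPM in cDC2 (log2 0.62 ± 0.14, adjusted p = 0.000969). Ndufaf6 rose by 1.78, Ndufa4 by 0.48 and Ndufb11 by 0.42, and Ndufa1 and Cox5a fell by a log2 of -0.60 and -0.51. Without WT control 0 members rose and 1 fell.

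Several subunits of complex IV have alternative forms encoded by separate genes, and for subunits 4, 6a, 6b and 8 a single form held most of the UMIs. Cox4i1 had 43211 UMIs in kept cells, whereas Cox4i2, known from lung and from responses to low oxygen, had 42. Cox6a1 had 12140 UMIs and Cox6a2 346. Cox6b1 had 21617 UMIs and Cox6b2, known as the testis form, had 433. Cox6b2 was highest in cDC2, at 19.8, 21.2, 24.0 and 22.2 CPM in Nr4a1-/- laser, WT laser, Nr4a1-/- control and WT control. Its cDC1 sums held 4 UMIs against 117 in cDC2 (log2 -3.50 ± 0.55 for cDC1 over cDC2, adjusted p = 7.96e-06 by edgeR). Cox7a1 had 170 UMIs and was highest in Spp1 Gpnmb macrophages at 11.6 CPM, against 17750 UMIs for Cox7a2 and 22144 for Cox7a2l. Cox8b, known from muscle and brown fat, had 132 UMIs against 43521 for Cox8a, and 111 of them were in cells gated as retinal pigment epithelium (RPE).

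The UMIs of Cox6a2 were concentrated in few cells. Its 346 UMIs were in 135 kept cells, up to 27 in 1 cell, and 280 of them were in 82 cells that also had a UMI of Siglech, a microglia marker that plasmacytoid dendritic cells are also known to express. Ungated cells held 180 of the 346, and 164 of these were in 30 cells with a Siglech UMI. The only B cell of the Nr4a1-/- laser library with the gene held 9 UMIs.

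The 3 genes for subunit c, Atp5g1, Atp5g2 and Atp5g3, encode the same mature protein. Their levels in Spp1 Gpnmb macrophages averaged 394, 409 and 189 CPM, against 117, 234 and 93.8 CPM in resident macrophages. In microglia they averaged 99.1, 245 and 66.5 CPM, so Atp5g2 was the highest of the 3 in each of these lineages and lay closest to Atp5g1 in Spp1 Gpnmb macrophages. The 4 subunits of succinate dehydrogenase did not share 1 pattern. Sdha, the flavoprotein, averaged 114 CPM in B cells and 85.4 CPM in Spp1 Gpnmb macrophages, whereas Sdhb, the iron-sulphur subunit, averaged 79.4 and 162 CPM in these lineages. The membrane anchors Sdhc and Sdhd averaged 55.3 and 47.2 CPM in Spp1 Gpnmb macrophages and 31.9 and 21.7 CPM in microglia.

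Laser was compared with control within each genotype and lineage. The summed level was above control in 18 of 19 intervals and below it in 0, and the largest ratios were in neutrophils, at 2.05 (95% interval 1.92 to 2.19) in Nr4a1-/- and 2.11 (2.03 to 2.19) in WT. Microglia followed at 1.63 (1.58 to 1.68) in Nr4a1-/- and 1.39 (1.36 to 1.41) in WT. Resident macrophages were at 1.41 and 1.24, cDC1 at 1.24 and 1.23, cDC2 at 1.20 and 1.15, T cells at 1.21 and 1.15, NK cells at 1.14 and 1.05, B cells at 1.12 and 1.11 and classical monocytes at 1.11 and 1.04, with Nr4a1-/- before WT. Non-classical monocytes of WT were at 1.00 (0.980 to 1.02), so a difference was not detectable there. Intervals cover counting error only, and the difference between animals cannot be measured with 1 library per group. The Nr4a1-/- control, the only library with a number from another set, stands under every Nr4a1-/- laser ratio, so library set and laser cannot be told apart in that genotype.

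**Figure D3:**
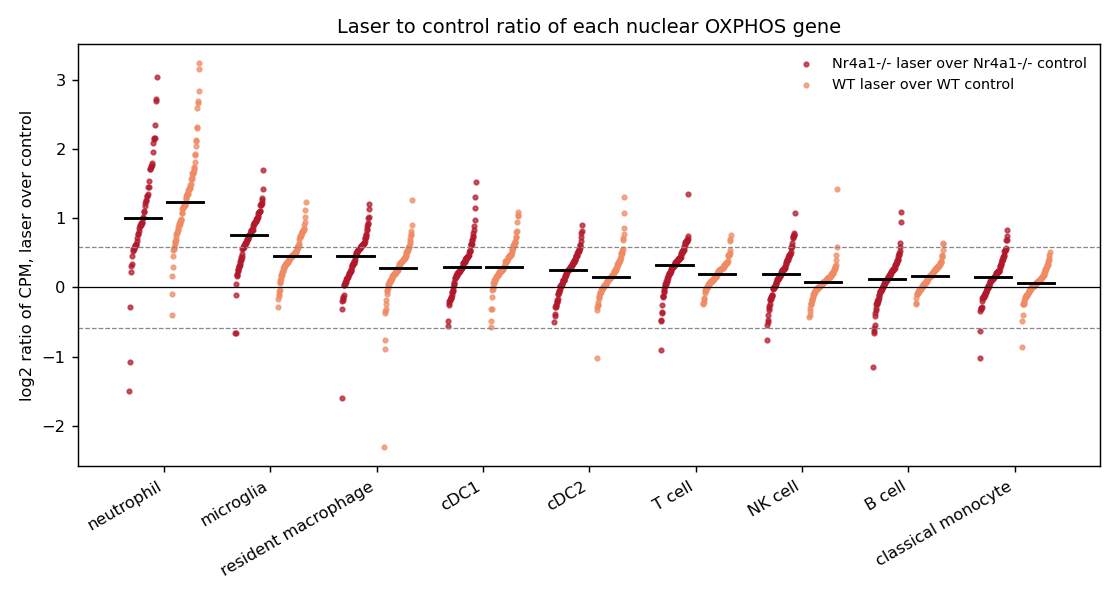
Log2 ratio of CPM, laser over control, of each member with at least 20 UMIs in the pair, by lineage and genotype, with a bar at the median and dashed lines at 1.5-fold. The medians lie at 1.01 and 1.23 in neutrophils and 0.76 and 0.45 in microglia (Nr4a1-/- and WT), and near 0 in classical monocytes.

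Single members were counted when they were at least 1.5-fold apart in the same direction in both genotypes. In neutrophils 41 of 56 members were higher and 0 lower, where 16.6% of all genes were higher and 9.26% lower. In microglia 21 of 84 were higher and 0 lower, where 7.31% of all genes were higher and 5.48% lower. In resident macrophages 2 of 82 were higher and 1 lower (3.73% and 6.67% of all genes), in cDC2 2 of 83 higher and 0 lower (5.32% and 4.53%), and in cDC1 4 of 78 higher and 0 lower (3.70% and 4.29%). No member was counted in classical monocytes (0 of 82, with 1.53% of all genes higher and 1.74% lower), B cells (0 of 86, 2.64% and 0.950%), T cells (0 of 86, 4.65% and 1.55%) or NK cells (0 of 81, 1.10% and 0.764%).

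In microglia the named members were Atp5k, Ndufb8 and Ndufb1-ps. Atp5k was at 48.7 CPM in Nr4a1-/- laser against 25.3 CPM in Nr4a1-/- control (ratio 1.92, 1.17 to 3.14), and at 85.5 CPM in WT laser against 44.3 CPM in WT control (1.93, 1.57 to 2.39). Ndufb8, an accessory subunit of complex I, was at 152 against 66.7 CPM in Nr4a1-/- (2.28) and 88.6 against 47.5 CPM in WT (1.86). Ndufb1-ps, which GENCODE classes as a long non-coding RNA, was at 137 against 63.6 CPM in Nr4a1-/- (2.15) and 166 against 82.3 CPM in WT (2.02). Reads of this locus and of any near-identical gene copy could have been split by the counting. All nuclear complexes were higher, with complex I at 1.79 and 1.40, complex III at 1.56 and 1.39, complex IV at 1.54 and 1.28 and complex V at 1.63 and 1.48 in Nr4a1-/- and WT, whereas the 13 mitochondrially encoded subunits were at 1.00 and 0.944. Glycolysis genes were at 1.71 and 1.39, and cytosolic ribosomal protein genes at 1.24 and 1.18. The RPE was part of the tissue from which the cells were sorted. Its markers summed to 34.5 CPM in Nr4a1-/- laser against 33.3 CPM in Nr4a1-/- control microglia (1.04, 0.601 to 1.73). In WT they summed to 109 CPM in laser against 44.7 CPM in control microglia (2.44, 2.00 to 3.00). Photoreceptor markers summed to 23.5 against 16.1 CPM in Nr4a1-/- (1.47, 0.722 to 2.87) and 31.2 against 14.5 CPM in WT (2.15, 1.497 to 3.14). Of the 8 RPE markers 4, 8, 5 and 8 had a UMI in microglia of Nr4a1-/- laser, WT laser, Nr4a1-/- control and WT control, with Rpe65 and Lrat at 0 in both Nr4a1-/- libraries, and of the 8 photoreceptor markers 2, 8, 5 and 4 did. Their part in the microglia ratios was not tested.

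Part of the microglia difference lay in the upper tail of the cells. The share of a cell's UMIs in the members had a median of 0.687% in Nr4a1-/- laser and 0.701% in WT laser, against 0.613% in Nr4a1-/- control and 0.544% in WT control, and a 90th percentile of 1.70% and 1.504% in laser against 0.902% and 0.969% in control. Cells with at least 3 of 8 cell cycle markers made up 7.46% of Nr4a1-/- laser and 5.69% of WT laser microglia, against 0% of Nr4a1-/- control and 1.58% of WT control microglia. Without those cells 5 members in place of 21 were higher in both genotypes, with cells thinned to 2000 UMIs 6, and without an upper limit on genes 37. Thinning also took the gated microglia of Nr4a1-/- laser from 134 to 95 cells. The members with enough UMIs in a pair can differ between these settings, so the counts need not cover the same set. They stand without the share of all genes, so whether the members moved apart from other genes cannot be told from them. The ratio of the summed members stayed above 1 in each of these settings, at 1.18 to 1.70 in Nr4a1-/- and 1.24 to 1.501 in WT over all settings tried.

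In neutrophils the named members were Atp5o, Atp5g1 and Ndufb3. Atp5g1 was at 164 CPM in Nr4a1-/- laser against 20.1 CPM in Nr4a1-/- control (ratio 8.18, 3.11 to 25.2), and at 125 CPM in WT laser against 28.9 CPM in WT control (4.32, 2.48 to 8.002). Atp5o, the OSCP subunit that joins the stalk to the catalytic head, was at 119 against 23.4 CPM in Nr4a1-/- (5.06) and 140 against 21.7 CPM in WT (6.46). Ndufb3 was at 155 against 23.4 CPM in Nr4a1-/- (6.62) and 117 against 23.5 CPM in WT (5.0). These ratios rest on 6 to 18 UMIs per library in Nr4a1-/- and on 12 to 74 in WT. Cytosolic ribosomal protein genes were also higher, at 2.26 and 2.00 in Nr4a1-/- and WT, and glycolysis genes were at 1.01 and 1.15.

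Gated neutrophils were split by a UMI of the gate marker Retnlg, a resistin-like secreted protein of mature neutrophils. A cell without such a UMI may still express the gene, and whether the split separates kinds of cells was not tested. Cells without a Retnlg UMI were 58.3% of Nr4a1-/- laser and 49.6% of WT laser neutrophils, against 4.82% of Nr4a1-/- control and 13.1% of WT control neutrophils. Among cells without Retnlg the members summed to 17666 CPM in Nr4a1-/- laser and 20678 CPM in WT laser, against 6939 CPM in Nr4a1-/- control and 6498 CPM in WT control, from 28, 60, 4 and 18 cells. Among cells with Retnlg they summed to 9779 and 9063 CPM in laser against 6778 and 7004 CPM in control, ratios of 1.44 and 1.29. Here 1 member in place of 41 was at least 1.5-fold higher in both genotypes. These cells held 512 member UMIs in Nr4a1-/- laser, against 1522 in all gated neutrophils of that library. The members that reach 20 UMIs in a pair can therefore differ, and the 2 counts need not cover the same set. This split was made after the data were seen.

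Other values moved with the split. The median Ly-6G tag count was 7 and 19.5 in Nr4a1-/- and WT laser cells without Retnlg, against 8 and 25 in those with it. S100a8 and S100a9, granulocyte alarmins, together made up 16652 and 17310 CPM without Retnlg and 49203 and 113720 CPM with it. Siglecf was at 210 and 336 CPM without Retnlg and 19.1 and 40.1 CPM with it, and the chemokine Ccl3 at 2116 and 817 CPM without and 210 and 117 CPM with it. A cell held a mean of 0.107 and 0.550 of the 8 classical monocyte markers without Retnlg, and 2.10 and 2.52 with it. The median number of the 8 neutrophil markers, Retnlg included, was 4 and 4 without Retnlg, and 6 and 7 with it. The part of these differences in the laser ratio of all gated neutrophils beyond the split itself was not tested.

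**Figure D4:**
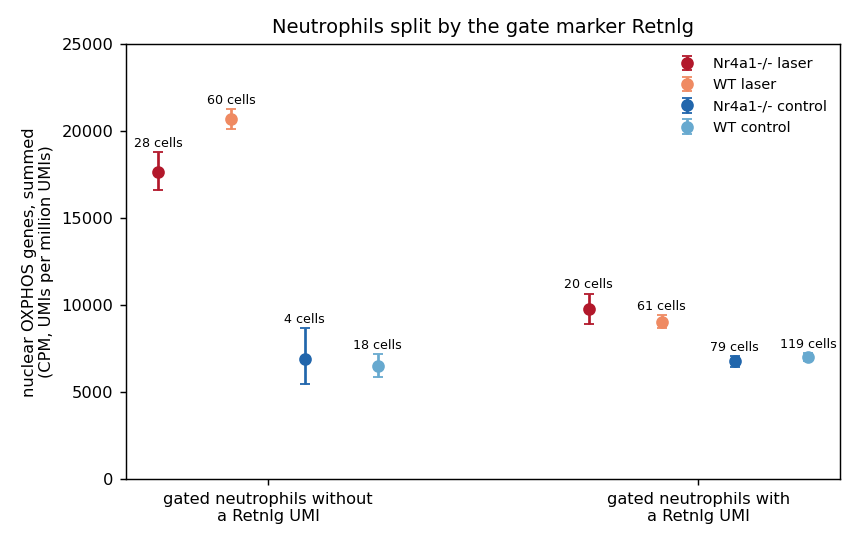
Summed level of the nuclear OXPHOS genes (CPM) in gated neutrophils without and with a UMI of Retnlg, by library, with exact Poisson 95% intervals and the number of cells. Laser cells without Retnlg sit at 17666 and 20678 CPM, and the highest of the other points is 9779 CPM.

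In the remaining myeloid lineages few members passed 1.5-fold. Ndufb1-ps was higher after laser in resident macrophages (2.01 in Nr4a1-/- and 1.71 in WT) and in cDC2 (1.65 and 1.70), as in microglia. Atp5g2 was higher in resident macrophages (1.52 in both genotypes) and Atp5md in cDC2 (1.73 and 1.64). The assembly factor Ndufaf4 was the only member lower after laser, in resident macrophages, at 6.71 against 20.3 CPM in Nr4a1-/- (0.331) and 7.94 against 14.8 CPM in WT (0.537). In cDC1, Ndufv3 (2.47 and 2.12), Ndufs8 (2.88 and 1.66) and Ndufv2, an iron-sulphur subunit near the NADH site (1.65 and 2.07), led the members that were higher. Cycling cells were 15.8% of Nr4a1-/- laser and 26.8% of WT laser cDC1, against 12.9% of Nr4a1-/- control and 9.09% of WT control cDC1. The summed level of the 8 cell cycle markers did not follow these shares in WT, at 659 against 332 CPM in Nr4a1-/- cDC1 (1.98) and 379 against 488 CPM in WT cDC1 (0.777, 0.658 to 0.918), and their part in the cDC1 ratios was not tested.

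The summed level differed little between the genotypes. The ratio of Nr4a1-/- to WT ran between 0.881 and 1.03 in 18 of 19 lineage pairs, and microglia of the laser pair were at 1.19 (1.16 to 1.22), or 0.958 (0.904 to 1.02) with cells thinned to 2000 UMIs. Thinning also changed the cells gated as microglia, from 134 to 95 in Nr4a1-/- laser and from 422 to 354 in WT laser. Of the 19 intervals, 9 lay below 1 and 3 above, and with TMM scaling 16 lay below and 1 above. In the control pair the library set of the Nr4a1-/- control likewise cannot be told apart from genotype.

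Against this, 4 small members were lower in Nr4a1-/- cells across many lineages. Atp5k was at least 1.5-fold lower in both pairs in 9 of 9 lineages, Ndufb1-ps in 6, Ndufa3 in 5 and Atp5mpl in 3. With cells thinned to 2000 UMIs these counts were 5, 4, 2 and 1. Neutrophils could not be counted there, with 17 thinned cells in Nr4a1-/- laser, and elsewhere a gene may no longer reach 20 UMIs in a pair. The counts of members lower in both pairs were 3 of 85 in microglia (3.10% of all genes), 2 of 84 in resident macrophages (1.77%), 4 of 83 in classical monocytes (3.17%), 2 of 83 in cDC2 (1.97%), 3 of 80 in cDC1 (2.66%), 3 of 61 in neutrophils (3.09%), 3 of 86 in B cells (1.34%), 4 of 86 in T cells (2.97%) and 2 of 83 in NK cells (2.12%). Other genes recurred too: over all genes 5 of 2856 measured in 9 lineages were lower in 9, 13 of 6686 measured in at least 6 were lower in at least 6, 17 of 7499 in at least 5 and 50 of 9056 in at least 3, beside 1 of 60, 2 of 82, 3 of 83 and 4 of 84 members. Members higher in both pairs were found only in B cells, 2 of 86 (0.730% of all genes): Ndufaf1 and Ndufaf6, with 7 to 37 UMIs per library.

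Atp5k was at 74.1 CPM in Nr4a1-/- laser T cells against 164 CPM in WT laser T cells, and at 53.3 CPM in Nr4a1-/- control against 119 CPM in WT control (ratios 0.451 and 0.449). In cDC1 it was at 90.2 against 235 CPM after laser and 79.5 against 174 CPM in control (0.384 and 0.457), and in Spp1 Gpnmb macrophages at 138 against 329 CPM (0.418). Over the lineages its ratio ran from 0.384 to 0.599 in the laser pair, with 10 of 10 intervals below 1, and from 0.449 to 0.604 in the control pair, with 8 of 9 below 1. Its Nr4a1-/- value was thus below its WT value in every lineage and treatment measured.

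Ndufb1-ps had ratios of 0.432 to 0.823 in the laser pair and 0.512 to 0.926 in the control pair, and all 19 were below 1. In T cells it was at 123 CPM in Nr4a1-/- laser against 285 CPM in WT laser and at 99.9 CPM in Nr4a1-/- control against 168 CPM in WT control. Ndufa3, an accessory subunit of complex I, had ratios of 0.453 to 0.737 and 0.330 to 0.849, also below 1 in every lineage. Atp5mpl, a small proteolipid of ATP synthase, ran from 0.542 to 1.02 and from 0.424 to 0.824, and NK cells of the laser pair were its only ratio above 1. The 4 genes lie on chromosomes 5 (Atp5k), 7 (Ndufa3) and 12 (Ndufb1-ps and Atp5mpl). In neutrophils Cox6c (0.583 and 0.526) and Ndufa1 (0.491 and 0.618) were also lower, and in microglia Cox6a2 was, with 2 and 4 UMIs in Nr4a1-/- laser and Nr4a1-/- control against 33 and 26 in WT laser and WT control. Whether a sequence difference between the strains changes the counting of these genes was not tested.

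**Figure D5:**
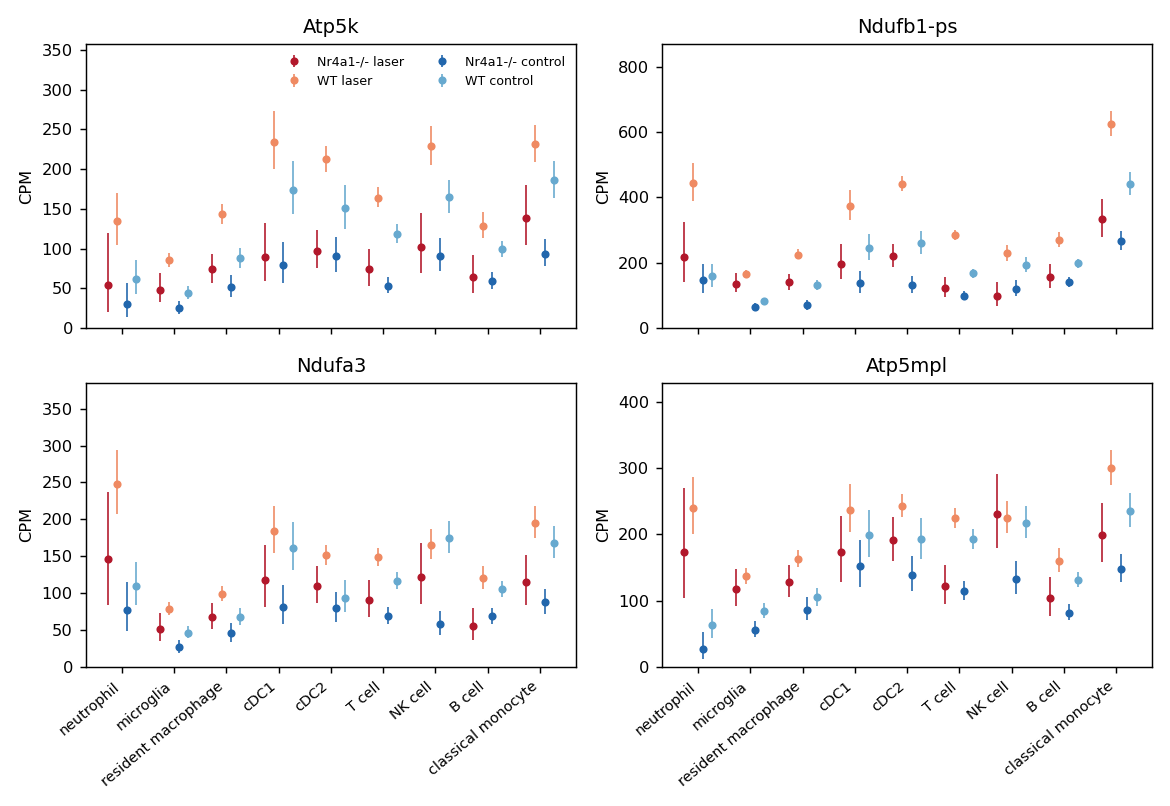
CPM of Atp5k, Ndufb1-ps, Ndufa3 and Atp5mpl by lineage in the 4 libraries, with exact Poisson 95% intervals. Atp5k is lower in Nr4a1-/- than in WT in 9 of 9 lineages in both treatments, for example 74.1 against 164 CPM in laser T cells.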

How the data were processed

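Reads were aligned by the authors to the mm10 build using Cell Ranger 7.0.1, per the submitters' processing notes, and 1 filtered matrix of unnormalized UMI counts was deposited per library. Whether intronic reads were counted is not given in the sources used here. RNA depth ran from 7848548 UMIs in the Nr4a1-/- laser library to 38052948 UMIs in the WT laser library, which limits rare members most in the shallowest. ADT counts were used only to check lineages. Of the gene identifiers, 32158 of 32285 matched GENCODE M21.

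The members, marker lists and gene lists were chosen with earlier results of these data known. A kept cell joined a lineage with at least 3 of its 8 markers and a lead of 2 over any other lineage, and sums of at least 20 cells were used. Doublets were treated only by the upper limit on genes and the lead. RNA counts were summed per lineage and library, and the 40 sums were fitted with edgeR 4.0.16 (TMM, quasi-likelihood, library as a block, R 4.3.3) in 8 contrasts, with Benjamini-Hochberg adjustment over all genes at 0.05. The residual spread is between libraries that differ in genotype and laser. Laser and genotype were compared as ratios of CPM with exact conditional binomial 95% intervals, for genes with at least 20 UMIs in the pair, and a gene was counted at 1.5-fold in both pairs. UMIs are counted molecules, and intervals cover counting error only.

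Named were the 2 highest members per complex, up to 4 members per direction and contrast, up to 3 per direction and lineage for laser or genotype, the alternative forms of subunits and the Sdh genes. Others were chosen after their values were seen. Alternatives were DESeq2 1.42.0, RLE factors, no filter on low sums, no block, leaving out each library, a looser gate (2 markers, lead of 1), thinning to 2000 UMIs (shallower cells left out, 419, 246, 135 and 396 kept cells of Nr4a1-/- laser, WT laser, Nr4a1-/- control and WT control), a mitochondrial limit of 10%, no upper limit on genes, no cycling cells, a minimum of 50 UMIs, TMM scaling and a denominator without mitochondrially encoded and ribosomal genes. Lineages were gated anew on the thinned counts, so they hold other cells than in the main setting. In WT laser, ungated cells rose from 1024 to 1256 and cDC2 fell from 215 to 68. Added after the data were seen were neutrophils with a Retnlg UMI only and cells with at least 5% ribosomal UMIs. The edgeR script was tested on simulated data for Spp1 Gpnmb over resident macrophages. It recovered 44% of genes changed 2-fold and 91% of those changed 4-fold, so a member that was not called may still differ. Sums and ratios were made in Python 3.11.15 with scipy 1.17.1 and pandas 2.3.3, and plots with matplotlib 3.10.9.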

Additional observations from a re-analysis of the deposited data

Results flagged for a closer look

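In some lineages a ratio had its whole 95% interval above 1 in 1 pair and below 1 in the other. None of these differences was tested, since each rests on 1 library per group. The mitochondrially encoded subunits in neutrophils were at 2.56 for laser over control in Nr4a1-/- and 0.728 in WT, and for Nr4a1-/- over WT at 1.91 after laser and 0.545 in control. The 18 WT control neutrophils without a Retnlg UMI held 21446 CPM of these subunits, against 5379 CPM in the 119 with it. For Nr4a1-/- over WT in resident macrophages, all members were at 1.02 after laser and 0.902 in control, complex IV at 1.06 and 0.861, and the mitochondrially encoded subunits at 1.09 and 0.952. In cDC1 the mitochondrially encoded subunits were at 1.09 after laser and 0.966 in control, and in NK cells complex I was at 1.07 after laser and 0.936 in control.

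Members that the lineage contrasts did not test had UMIs in cells outside the described lineages. Of the 132 UMIs of Cox8b, 123 were there, 111 in cells gated as RPE and 12 in ungated cells. Of the 42 UMIs of Cox4i2, 21 were there, 1 in cells gated as RPE and 20 in ungated cells.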

How the results depend on the processing

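Of the ratios of summed members under the alternative settings, 206 stayed within their counting interval, 89 left it, and 8 with an interval that excluded 1 changed sides of 1, and the cause was not tested. Among the 206 and the 89, 17 whose interval held 1 crossed it, at 0.943 to 1.21, the farthest being Nr4a1-/- over WT in NK cells of the laser pair (TMM scaling) and in cDC2 of the control pair (thinned cells). The 8 were laser over control in WT NK cells (0.975 with thinned cells) and Nr4a1-/- over WT in the laser pair for microglia (0.958 with thinned cells), resident macrophages (0.972 with TMM scaling, 0.990 with the looser gate), cDC2 (0.964 with TMM scaling, 0.994 with no upper limit on genes) and cDC1 (1.00 with thinned cells, 1.02 without cycling cells). With TMM scaling 1 laser interval lay below 1, 16 genotype intervals lay below 1 and 1 above, and 1 lay above with the reduced denominator or no upper limit on genes. Members higher after laser in both pairs numbered 6 with thinned cells, 37 with no upper limit and 5 without cycling cells in microglia, and 26 with TMM scaling, 18 with a minimum of 50 UMIs and 1 with Retnlg cells only in neutrophils. The members that reach the UMI minimum can differ between these settings. With thinned cells Atp5k was lower in both genotype pairs in 5 lineages, Ndufa3 in 2 and Atp5mpl in 1, and neutrophils could not be counted, with 17 thinned cells in Nr4a1-/- laser.

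Counts of members called in the contrasts also moved. For Spp1 Gpnmb over resident macrophages, 1 member fell with DESeq2, RLE factors or thinned cells, and leaving out each library gave 35 to 61 that rose and 0 to 1 that fell. For Spp1 Gpnmb macrophages over classical monocytes, 16 rose with DESeq2 and 13 with RLE factors, and 4 fell with no filter or thinned cells. Leaving out a control library gave 7 or 8 that rose and 4 or 6 that fell, and leaving out a laser library left 1 Spp1 Gpnmb library. For microglia over resident macrophages, 0 rose with thinned cells, and leaving out libraries gave 0 to 1 that rose and 33 to 47 that fell. For non-classical over classical monocytes, 0 rose with the looser gate, thinned cells or no block, and 24 fell with no filter, 21 with thinned cells and 25 with no block. Leaving out an Nr4a1-/- library gave 1 that rose and 29 or 44 that fell, and leaving out a WT library left 1 library of non-classical monocytes. For neutrophils over classical monocytes, 2 rose with DESeq2 or RLE factors and 0 with the looser gate or thinned cells, 72 fell with Retnlg cells only, and leaving out libraries gave 0 to 1 that rose and 51 to 68 that fell. For NK over T cells, 13 rose with DESeq2, 2 with no filter and 5 with thinned cells or no block, 1 fell with no block, and leaving out libraries gave 4 to 7 that rose and 1 to 2 that fell. For B over T cells, 2 rose with DESeq2, no filter or thinned cells, 13 fell with no filter or no block and 12 with the looser gate, and leaving out libraries gave 0 to 1 that rose and 11 to 15 that fell. For cDC1 over cDC2, 9 rose with DESeq2, 8 with RLE factors, 2 with no filter, the looser gate or no block and 1 with thinned cells, 5 fell with the looser gate and 1 with thinned cells or no block, and leaving out libraries gave 0 to 4 that rose and 1 to 2 that fell.

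Where an arm is left with 1 library, that library is assumed to vary like the other sums. No paired analysis was possible because each group has 1 library and the libraries share 1 replicate number, and a fit of laser and genotype together over the 4 libraries was not run. The shallow Nr4a1-/- laser library limits the rare members.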
